A study of Mus musculus with 10 samples.

Results

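The ADAM proteins (a disintegrin and metalloprotease), the ADAMTS proteins (the same with thrombospondin repeats) and the ADAMTS-like proteins were taken as all genes of the count table whose symbol is Adam, Adamts, Adamtsl or Adamdec followed by a number. This rule found 57 of the 20692 genes in the table: 33 ADAM genes, including Adamdec1, 19 ADAMTS genes and 5 ADAMTS-like genes. Polyadenylated RNA of the ventricular apex, also labelled whole heart, was sequenced from 10 wild-type FVB/NJ mice that were 9 weeks old and labelled female. Of these, 5 were sham operated and 5 had undergone transverse aortic constriction, or TAC (an operation that narrows the aorta, so that the left ventricle pumps against a higher pressure), 1 week before. The titles of the sham libraries name no operation, and the design text supplies their group. No transgene, drug or further treatment is named for either group.

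ADAM proteases are anchored in the cell membrane and cut the outer parts off other membrane proteins, a step called shedding that releases growth factors, cytokines and receptors. ADAMTS proteases are secreted and act in the extracellular matrix, where different members trim procollagens, cleave large proteoglycans such as aggrecan and versican, cut von Willebrand factor or act on cartilage oligomeric matrix protein. The ADAMTS-like proteins have the thrombospondin repeats but no protease domain, and several bind fibrillin microfibrils. In the heart the shedding of heparin-binding EGF-like growth factor and the turnover of versican and fibrillar collagen are textbook settings of these enzymes.

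Of the 57 genes, 33 had enough counts for the test and 24 did not, and 13 of the untested genes had no count in any library. Libraries held 7410967 to 10126574 counts, and members with at least 1 count numbered 36 to 40 per library. Levels are given as CPM, counts per 1000000 of the library total scaled by the TMM method, and a gene was called where the edgeR quasi-likelihood test gave a Benjamini-Hochberg adjusted p under 0.05 over all 12001 tested genes. The 5 libraries of a group were taken as separate animals because the design text counts mice, although no animal identifiers are given. TAC replicate 1 went against its label: its Xist count was 14, against 1042 to 1561 in the other libraries, and it held 155 counts of Ddx3y and 132 of Eif2s3y, Y-linked genes with at most 2 counts elsewhere. The calls of members are therefore also given or counted without it, and other counts and levels where leaving it out changed them. Cardiomyocyte markers were high in all libraries (Tnnt2, cardiac troponin T, 9315 to 10219.8 CPM in sham and 6797 to 7452 CPM in TAC), and the summed level of 4 atrial markers was at most 4.01 CPM. The submitters' notes list different aligner versions for the 2 groups, so that this step and the operation cannot be told apart in any comparison here.

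Most of the active enzymes share a zinc site in which 3 histidines hold the zinc ion and a glutamate takes part in catalysis. Translating 1 coding transcript per gene (GENCODE M21, GRCm38) and searching for histidine, glutamate, any 2 residues, histidine, any 5 residues and histidine found this spacing in 38 of the 57 members. It was present in all 9 ADAM sheddases and all 19 ADAMTS genes and in 10 of the 20 ADAM genes known mainly from testis or other reproductive tissue. Adam11, Adam22, Adam23, Adamdec1 and all 5 ADAMTS-like genes had no match. The search covers only this spacing with 3 histidines, so a missing match does not by itself show that a protein is inactive. The coding sequences of the site are shown for members on which the results turn, to let the pairs that moved apart be compared. Each run is 36 bases, read 5′ to 3′ on the coding strand, and the capitals mark the codons of the 3 histidines and of the glutamate.
Adam10: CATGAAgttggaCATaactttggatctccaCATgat
Adam17: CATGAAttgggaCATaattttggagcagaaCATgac
Adam8: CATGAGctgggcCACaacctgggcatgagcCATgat
Adam12: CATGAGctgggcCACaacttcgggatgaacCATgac
Adamts2: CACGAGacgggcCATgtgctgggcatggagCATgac
Adamts3: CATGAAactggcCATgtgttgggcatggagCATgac
Adamts12: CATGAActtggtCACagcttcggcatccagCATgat
Adamts7: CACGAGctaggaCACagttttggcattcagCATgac
Adamts20: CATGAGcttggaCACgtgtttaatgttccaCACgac
Adamts8: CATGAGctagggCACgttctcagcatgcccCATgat
Adamts1: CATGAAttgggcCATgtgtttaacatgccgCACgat
Adamts5: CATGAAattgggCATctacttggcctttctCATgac

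In GRCm38 the site of Adam8 lies in exon 11 at chr7:139987890-139987925 and that of Adam12 in exon 11 at chr7:133961155-133961190, both on the minus strand. The Adam17 site lies in exon 12 at chr12:21336729-21336764, also on the minus strand. All other sites shown are split by an intron, and the coordinates that follow include it. On the plus strand lie those of Adam10 (exons 9 and 10, chr9:70754296-70761588), Adamts2 (exons 7 and 8, chr11:50775403-50776137), Adamts12 (exons 7 and 8, chr15:11241529-11255567), Adamts7 (exons 7 and 8, chr9:90179456-90180643) and Adamts8 (exons 3 and 4, chr9:30952721-30953381). On the minus strand lie those of Adamts3 (exons 8 and 9, chr5:89707430-89707818), Adamts20 (exons 8 and 9, chr15:94353675-94355296), Adamts1 (exons 3 and 4, chr16:85799188-85799545) and Adamts5 (exons 2 and 3, chr16:85878012-85887826). Adamts2 and Adamts3 had the same base at 32 of the 36 positions, and Adamts12 and Adamts7 at 28. The codon 3 places before the last histidine encodes glycine in 32 of the 38 genes. It encodes asparagine in 5 genes (Adamts1, Adamts4, Adamts9, Adamts15 and Adamts20, codons aac or aat) and serine in Adamts8 (agc), all from the group that cleaves aggrecan and versican, of which only Adamts5 has the glycine codon (ggc). The site gives the identity of the enzymes and was not measured by the sequencing.

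Across the 33 tested members, 13 were called higher in TAC and 3 lower, and 17 did not pass. That is 48.5% of the tested members, against 35.8% of all tested genes. Higher calls made up 39.4% of tested members against 18.8% of all tested genes, and lower calls 9.09% against 17.0%. The median log2 fold change was 0.24 for the members and 0.0027 for all tested genes. In 10 members every TAC library lay above every sham library, which held for 12.2% of all tested genes, and in 1 member every TAC library lay below, against 11.6% of all genes. Without TAC replicate 1, all 16 calls held and Adam9 joined the higher ones, and 24 of 33 members had a value above 0 instead of 27. One member, Adamts20, passed the count filter only through the TAC libraries, so its call follows in part from that filter. By class, 5 of 12 tested ADAM genes, 6 of 16 tested ADAMTS genes and 2 of 5 ADAMTS-like genes were called higher, and 1, 2 and 0 lower. Among the 25 tested members with the zinc site 11 were higher and 3 lower, and among the 8 without it 2 were higher and none lower by the same test.

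**Figure D1:**
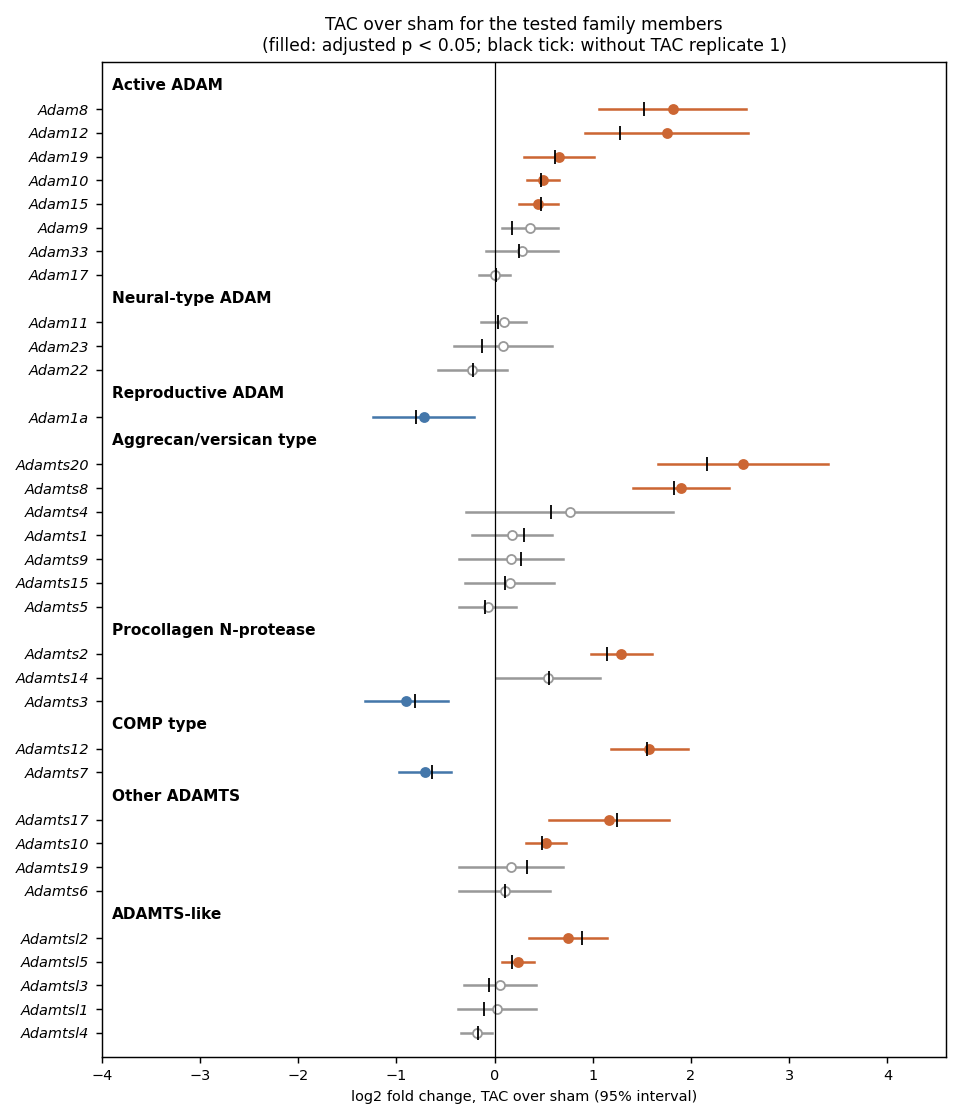
Log2 fold change of TAC over sham for the 33 tested members, grouped by role, with the 95% interval as a line, filled points for members called by edgeR (orange higher, blue lower) and a black tick for the value without TAC replicate 1. Adamts20, Adamts8, Adam8 and Adam12 lie farthest to the right, Adamts3, Adam1a and Adamts7 lie to the left of 0, and Adam17 lies at 0.

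Of the 9 ADAM sheddases, 8 were tested, and 5 rose after TAC (62.5%, against 18.8% of all tested genes): Adam8, Adam12, Adam19, Adam10 and Adam15. Shares of such small groups are given as a description, and their difference from all genes was not tested. The other three, Adam9, Adam33 and Adam17, did not pass, and Adam28 was too low to test. Adam10, which sheds Notch receptors, cadherins and many other membrane proteins, was at 22.1, 27.9, 25.2, 28.6 and 27.6 CPM in sham replicates 1 to 5. In TAC replicates 1 to 5 it was at 38.6, 34.7, 39.7, 36.4 and 35.2 CPM. The groups did not overlap, and the spread within each was narrow. Adam10 changed 1.41-fold, a log2 fold change of 0.49 ± 0.08 (SE, n = 5 per group; edgeR adjusted p = 0.000414), and 0.48 without TAC replicate 1.

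Adam17, the enzyme that releases tumour necrosis factor and sheds ligands of the EGF receptor, stood at 40.5, 47.7, 39.5, 43.5 and 46.1 CPM in the sham libraries. Its TAC libraries held 42.1, 49.1, 39.7, 44.1 and 42.6 CPM. The means of 43.4 ± 3.51 and 43.5 ± 3.50 CPM (SD, n = 5 each) were nearly the same, with overlapping libraries throughout. The log2 fold change had a 95% interval of -0.16 to 0.16 (edgeR adjusted p = 0.999), which leaves out the 0.49 measured for Adam10. The difference between these fold changes was not itself tested. About 4.35% of the exon length of Adam17 overlaps Iah1.

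Adam8, a leukocyte-rich ADAM that cuts adhesion molecules, was near the lower limit of the test in sham, at 1.47, 0.976, 1.42, 1.60 and 1.60 CPM. After TAC it was at 8.67, 5.03, 6.15, 3.13 and 2.31 CPM, so that all TAC libraries were above all sham libraries, with TAC replicate 1 highest and TAC replicate 5 closest to sham. The rise was 3.51-fold (log2 1.81 ± 0.35, edgeR adjusted p = 0.00151) and log2 1.52 without TAC replicate 1 (edgeR adjusted p = 0.00196). Adam12, a sheddase of heparin-binding EGF-like growth factor known from muscle and mesenchymal cells, was at 3.35, 2.68, 1.42, 1.49 and 3.20 CPM in sham and 17.6, 7.07, 6.87, 5.43 and 4.72 CPM in TAC. Here too the groups did not overlap, but TAC replicate 1 held more than any other TAC library. The log2 fold change of 1.75 ± 0.39 (edgeR adjusted p = 0.00361), or 3.37-fold, became 1.28, or 2.43-fold, without it (edgeR adjusted p = 0.00164).

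Adam19, a sheddase of neuregulin that is needed for heart valve and septum formation, was at 74.8, 61.2, 67.0, 41.2 and 41.7 CPM in sham and 99.5, 105, 97.4, 70.8 and 79.1 CPM in TAC. The lowest TAC library lay below the highest sham library, so the groups overlapped, at a log2 fold change of 0.66 ± 0.17 (edgeR adjusted p = 0.0078) and 0.62 without TAC replicate 1. Adam15, an ADAM of endothelial and smooth muscle cells, was at 183, 156, 145, 127 and 152 CPM in sham and 188, 239, 217, 202 and 191 CPM in TAC. All TAC libraries were above all sham libraries, by a log2 fold change of 0.44 ± 0.09 (edgeR adjusted p = 0.00264) and 0.48 without TAC replicate 1. Because the libraries do not keep the strand and 20.6% of its exon length overlaps 4731419I09Rik, reads of these genes cannot be told apart there. For Adam19 10.09% overlaps Gm16033 or Gm16034.

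Adam9, a broadly expressed sheddase, gave 52.3, 50.7, 51.5, 50.3 and 52.2 CPM in sham, the tightest values of the family relative to their level. Its TAC values were 97.8, 58.7, 56.5, 57.0 and 59.8 CPM. Every TAC library was above every sham library, and TAC replicate 1 stood far above the other four. A log2 fold change of 0.36 ± 0.13 just missed the threshold (edgeR adjusted p = 0.0507). Without TAC replicate 1 the size fell to 0.17 but passed (edgeR adjusted p = 0.0198). Adam33, linked to airway remodelling, was weakly detected at 2.36 ± 0.273 CPM in sham and 2.84 ± 0.474 CPM in TAC (SD, n = 5 each) and did not pass (log2 0.28 ± 0.17, edgeR adjusted p = 0.25). Adam28, a lymphocyte ADAM, had 0 to 4 counts per library.

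Markers of several cell types were compared by the same test. Called higher were 100% of macrophage, 71.4% of fibroblast, 33.3% of endothelial and 20% of mesothelial markers tested, against 18.8% of all tested genes. The mesothelial share was thus near that of all genes. Called lower were 85.7% of cardiomyocyte markers, against 17.0% of all tested genes. All 7 macrophage markers were called higher in TAC, 6 of them without TAC replicate 1, and their summed level was 112 to 134 CPM in sham and 181 to 312 CPM in TAC, with TAC replicate 1 highest. Of 7 fibroblast markers 5 were higher, 4 of them without TAC replicate 1, with sums of 585 to 751 CPM in sham and 1358 to 3779 CPM in TAC, again highest in TAC replicate 1. Much of these sums was Col1a1 alone, at 219 to 384 CPM in sham and 825 to 2998 CPM in TAC. The median log2 fold change of the fibroblast markers was 0.34. Cardiomyocyte markers were lower for 6 of 7, with and without TAC replicate 1, with sums of 75833 to 90434 CPM in sham and 49272 to 71989 CPM in TAC. Of 6 endothelial markers 2 were higher, Pecam1 (log2 0.28 ± 0.07, edgeR adjusted p = 0.00745) and Cdh5 (log2 0.54 ± 0.07, edgeR adjusted p = 0.000179; every TAC library above every sham library), and Tie1 joined them without TAC replicate 1. Their list summed to 984 to 1195 CPM in sham and 1134 to 1371 CPM in TAC. Of 5 mesothelial markers 1, Wt1, was higher (log2 0.80 ± 0.19, edgeR adjusted p = 0.00596), and that list summed to 27.3 to 49.2 CPM in sham and 28.9 to 58.3 CPM in TAC. None of the markers of these 5 lists was at 0. Of 5 neutrophil markers only Csf3r could be tested and was higher, while S100a8, S100a9, Retnlg and Mmp8 were too low, and the 6 lymphocyte markers were all too low. The part of these shifts in the members' changes was not tested, and in bulk tissue fewer cells of a type and less RNA per cell cannot be told apart.

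**Figure D2:**
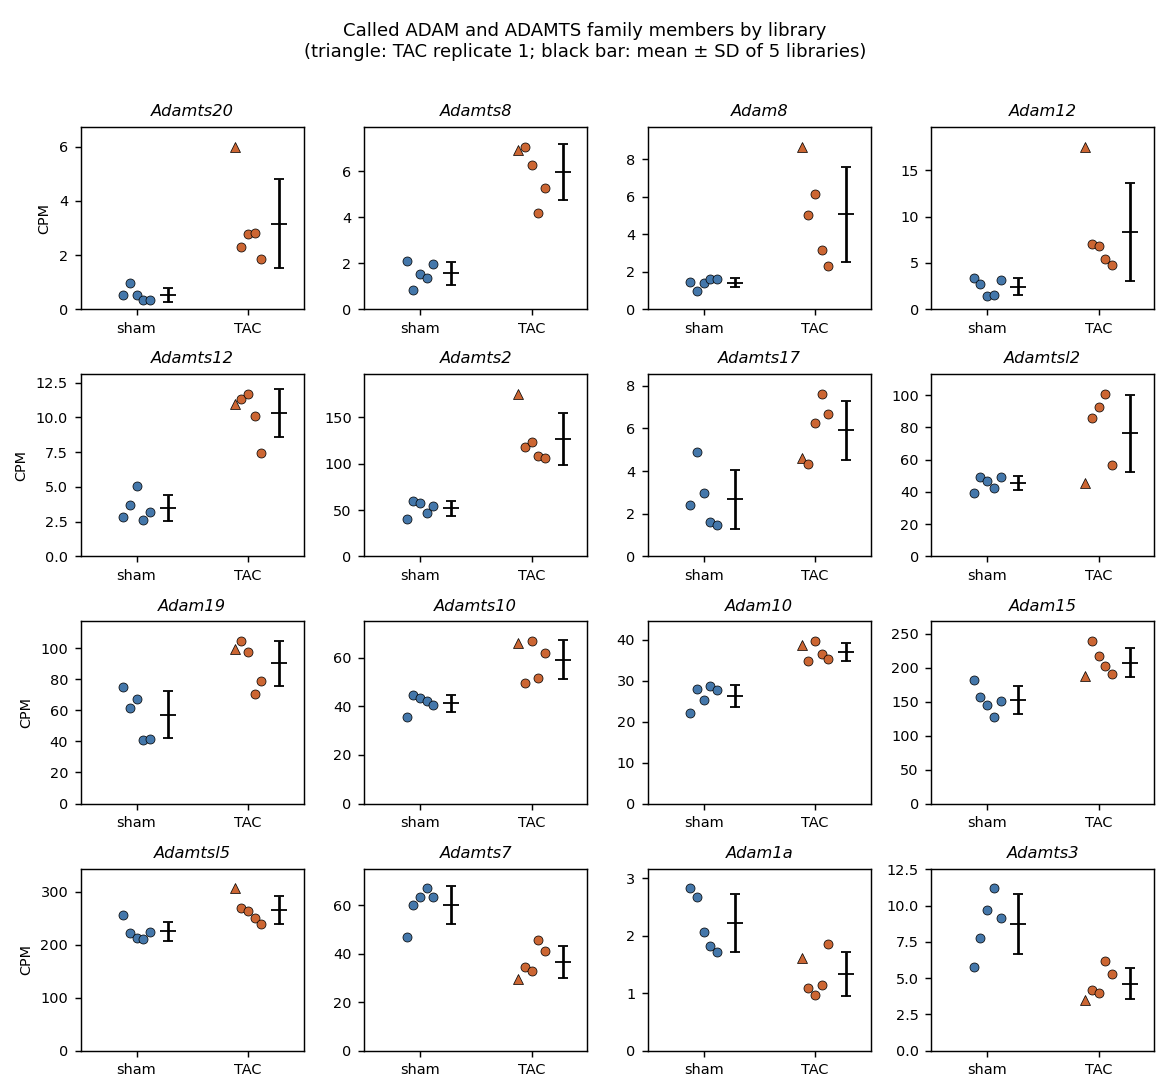
CPM in each library for the 16 called members, from the largest rise to the largest fall, with sham in blue, TAC in orange, TAC replicate 1 as a triangle and the mean ± SD of 5 libraries in black; each panel starts at 0 on its own scale. Adam12, Adamts20 and Adamts2 have TAC replicate 1 far above the other TAC libraries, while for Adamtsl2 that library lies among the sham values at 45.3 CPM.

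None of the 3 ADAM genes without protease activity, Adam11, Adam22 and Adam23, passed the test. These are receptors for the secreted Lgi proteins and are best known from neurons. Adam11 was at 30.3, 39.5, 33.1, 41.3 and 35.0 CPM in sham and 44.4, 32.5, 33.7, 43.1 and 36.6 CPM in TAC (log2 0.09 ± 0.11, edgeR adjusted p = 0.546). Adam23 was at 3.56, 6.71, 5.81, 6.29 and 6.07 CPM in sham and 9.36, 6.39, 4.10, 4.28 and 6.04 CPM in TAC (log2 0.09 ± 0.23, edgeR adjusted p = 0.802), with sham replicate 1 lowest and TAC replicate 1 highest of all libraries. Adam22 averaged 4.99 ± 0.596 CPM in sham and 4.27 ± 0.87 CPM in TAC (SD, n = 5 each; log2 -0.23 ± 0.16, edgeR adjusted p = 0.305). Libraries of the groups overlapped for each of them. Of the Lgi genes, Lgi1, Lgi3 and Lgi4 were tested and none passed. Lgi1, the ligand best known from the brain, had a log2 value of -0.95 ± 0.38 (edgeR adjusted p = 0.0659), Lgi3 one of 0.44 ± 0.40 (edgeR adjusted p = 0.42) and Lgi4, the Schwann cell ligand of Adam22, one of 0.27 ± 0.13 (edgeR adjusted p = 0.128). Of 2 sympathetic nerve markers, Th had no counts, and Dbh was detected at 2.20 to 4.39 CPM in sham and 1.73 to 4.70 CPM in TAC without passing the test (log2 -0.31 ± 0.27, edgeR adjusted p = 0.417). Sox10 of glia was detected and did not pass either.

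Among the 20 ADAM genes of reproductive tissue, Adam1a alone could be tested, and 12 had no count in any library. Adam1a, a subunit of the sperm surface protein fertilin, held 2.83, 2.68, 2.07, 1.83 and 1.72 CPM in sham and 1.62, 1.09, 0.964, 1.15 and 1.87 CPM in TAC. The groups overlapped through TAC replicate 5, and the log2 fold change was -0.72 ± 0.24 (edgeR adjusted p = 0.0314), or -0.80 without TAC replicate 1. This call is uncertain: it was lost in 8 of 18 alternative analyses, and 63.7% of its exon length overlaps Mapkapk5, Tmem116 or Gm42878. Its neighbour Adam1b has the same 36 bases at the zinc site and held 7, 3, 9, 3 and 3 counts in sham and 5, 1, 6, 3 and 2 in TAC, too few to test. Adam4 had 3, 5, 7, 5 and 2 counts in sham and 6, 2, 4, 2 and 3 in TAC. The others with any count (Adam2, Adam5, Adam6b, Adam21 and Adam32) had at most 1 per library, and germ cell markers were near 0, with Prm2 at 0 in all libraries.

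Of the 7 ADAMTS proteases that cleave aggrecan or versican, Adamts8 and Adamts20 rose (28.6%, against 18.8% of all tested genes). The other 5 did not pass, while versican itself rose. Adamts8, an antiangiogenic member known from heart and lung, was at 2.10, 0.854, 1.55, 1.37 and 1.95 CPM in sham and 6.93, 7.07, 6.27, 4.18 and 5.27 CPM in TAC. The lowest TAC library was well above the highest sham library. The rise was 3.72-fold (log2 1.90 ± 0.23, edgeR adjusted p = 8.07e-05), and log2 1.83 without TAC replicate 1; 10.6% of its exon length overlaps Gm29724. Adamts20, a versican protease of the developing skin and palate, had 5, 8, 4, 3 and 3 counts in the sham libraries and 52, 17, 23, 27 and 17 in the TAC libraries, or 0.343 to 0.976 CPM against 1.87 to 6.01 CPM. This gave a log2 fold change of 2.53 ± 0.40 (edgeR adjusted p = 0.000468) and 2.16 without TAC replicate 1, which was the highest library. These low counts make the size imprecise, and no sham library reached the filter's minimum of 1.19 CPM.

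Adamts1, an early-response protease that also inhibits angiogenesis, was at 105, 66.7, 85.4, 83.1 and 90.2 CPM in sham and 61.6, 121, 113, 124 and 67.0 CPM in TAC. Adamts9, a versican protease of vessels and the developing heart, was at 127, 69.9, 58.6, 53.1 and 60.8 CPM in sham and 58.9, 129, 85.2, 76.9 and 67.4 CPM in TAC. Both overlapped widely between groups, and 11.99% of the exon length of Adamts9 overlaps A730049H05Rik or Gm15737. Their log2 fold changes were 0.18 ± 0.19 (edgeR adjusted p = 0.509) and 0.17 ± 0.24 (edgeR adjusted p = 0.627). Adamts5, the main aggrecanase of mouse cartilage, gave 44.8, 31.0, 32.2, 25.3 and 29.5 CPM in sham and 33.5, 27.3, 36.6, 27.1 and 30.5 CPM in TAC (log2 -0.07 ± 0.14, edgeR adjusted p = 0.719). Adamts15 was at 18.8, 17.7, 11.1, 12.8 and 11.4 CPM in sham and 17.8, 23.5, 15.4, 14.2 and 9.77 CPM in TAC (log2 0.15 ± 0.21, edgeR adjusted p = 0.61), and its groups overlapped as well.

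Adamts4, another aggrecanase, was at 10.5, 5.37, 2.84, 1.94 and 3.09 CPM in sham and 11.9, 16.2, 5.18, 5.53 and 2.85 CPM in TAC. It varied more than 5-fold within each group, and its log2 fold change of 0.76 ± 0.49 did not pass (edgeR adjusted p = 0.247; 95% interval -0.29 to 1.81). Sham replicate 1 was the highest sham library for Adamts1, Adamts4, Adamts5, Adamts8, Adamts9 and Adamts15, and for 13 of all 33 tested members. Without that library Adamts4 passed, with a log2 fold change of 1.31 (edgeR adjusted p = 0.0494). Among the TAC libraries, replicate 2 was highest for Adamts4, Adamts8, Adamts9 and Adamts15, and replicate 5 was lowest for Adamts4, Adamts15 and Adamts20. What sets these libraries apart is not given by the labels. Fos, an immediate early gene, was at 4.82 and 5.37 CPM in sham replicates 1 and 2 and at 33.2 to 47.7 CPM in the other sham libraries. In TAC it was at 8.09 to 22.4 CPM, with 12.2 CPM in replicate 2. Fosb, Junb, Egr1, Atf3 and Dusp1 were also lower in sham replicates 1 and 2 than in the other sham libraries, and Ier3 was not. The part of these genes in the values above was not tested.

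**Figure D3:**
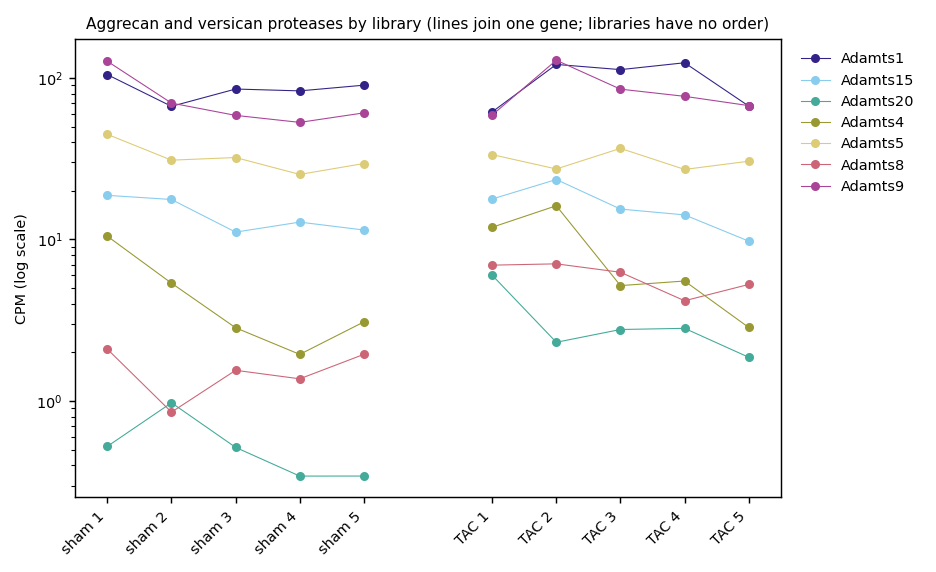
CPM on a log scale in each library for the 7 ADAMTS proteases that cleave aggrecan or versican, with thin lines joining the values of a gene. Adamts8 and Adamts20 are higher in every TAC library than in every sham library, whereas Adamts9 reaches 127 CPM in sham replicate 1 and 129 CPM in TAC replicate 2 and overlaps between groups.

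The 3 procollagen N-proteases, which remove the amino-terminal propeptide of fibrillar procollagens, moved apart: Adamts2 rose, Adamts3 fell and Adamts14 did not pass. Adamts2, the main enzyme for procollagen I, was at 40.0, 60.0, 58.1, 46.3 and 54.5 CPM in sham and 175, 118, 124, 109 and 107 CPM in TAC. Every TAC library was above every sham library, and TAC replicate 1 was the highest. The rise was 2.44-fold (log2 1.29 ± 0.14, edgeR adjusted p = 5.56e-05), and log2 1.14 without TAC replicate 1 (edgeR adjusted p = 1.48e-05). Adamts3, which acts on procollagen II and on the precursor of vascular endothelial growth factor C, was at 5.76, 7.80, 9.69, 11.2 and 9.16 CPM in sham and 3.47, 4.21, 3.98, 6.16 and 5.27 CPM in TAC. Its groups overlapped only between sham replicate 1 and TAC replicate 4. It changed by a log2 fold change of -0.90 ± 0.20 (edgeR adjusted p = 0.0034) and -0.81 without TAC replicate 1. Adamts14 was at 3.67, 5.98, 5.04, 2.97 and 3.32 CPM in sham and 5.89, 8.15, 5.66, 7.52 and 3.29 CPM in TAC, with overlapping groups (log2 0.54 ± 0.25, edgeR adjusted p = 0.106).

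The pair that acts on cartilage oligomeric matrix protein, Adamts12 and Adamts7, likewise moved in opposite directions. Adamts12 was at 2.83, 3.66, 5.04, 2.63 and 3.20 CPM in sham and 11.0, 11.3, 11.7, 10.1 and 7.46 CPM in TAC. The groups were well separated, at 2.98-fold (log2 1.58 ± 0.18, edgeR adjusted p = 6.28e-05). Adamts7, a protease studied in vascular smooth muscle and atherosclerosis, was at 46.9, 60.4, 63.3, 67.1 and 63.3 CPM in sham and 29.5, 34.5, 32.8, 45.7 and 41.1 CPM in TAC. It was the only member with every TAC library below every sham library, although the gap between TAC replicate 4 and sham replicate 1 was small. It changed by a log2 fold change of -0.71 ± 0.12 (edgeR adjusted p = 0.00075). Without TAC replicate 1 the values were 1.55 for Adamts12 and -0.64 for Adamts7. Of 7 smooth muscle and pericyte markers 1, Pdgfrb, was called, and it was higher (14.3%, against 18.8% of all tested genes). Without TAC replicate 1 Rgs5 was called higher as well (edgeR adjusted p = 0.0125). The summed level of that list was 1012 to 1335 CPM in sham and 1043 to 1186 CPM in TAC.

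Of the other ADAMTS genes, 4 were tested, and Adamts10 and Adamts17 rose (50%, against 18.8% of all tested genes). Both are members of the subgroup tied to fibrillin and to Weill-Marchesani-type connective tissue disease. Adamts10 was at 35.7, 44.8, 43.4, 42.1 and 40.6 CPM in sham and 66.1, 49.5, 66.9, 51.7 and 61.9 CPM in TAC, without overlap (log2 0.52 ± 0.09, edgeR adjusted p = 0.00108; 0.48 without TAC replicate 1). Adamts17 was at 2.41, 4.88, 2.97, 1.60 and 1.49 CPM in sham and 4.62, 4.35, 6.27, 7.62 and 6.70 CPM in TAC. Sham replicate 2 reached into the TAC range, and the rise was 2.24-fold (log2 1.17 ± 0.28, edgeR adjusted p = 0.00629; 1.25 without TAC replicate 1). Adamts6, the relative of Adamts10, averaged 3.28 ± 0.971 CPM in sham and 3.49 ± 0.613 CPM in TAC (log2 0.10 ± 0.22, edgeR adjusted p = 0.754). Adamts19, mutated in heart valve disease, averaged 2.11 ± 0.452 and 2.35 ± 0.713 CPM (SD, n = 5 each; log2 0.17 ± 0.25, edgeR adjusted p = 0.631). Neither of these passed. Adamts16 had no count in the sham libraries and 5, 0, 0, 1 and 1 counts in the TAC libraries, while Adamts18 had 2 counts in all and Adamts13, the protease that cuts von Willebrand factor, had 1. At this depth a change in these genes was not detectable.

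Of the 5 ADAMTS-like genes, all were tested, Adamtsl2 and Adamtsl5 rose (40%, against 18.8% of all tested genes) and the rest did not pass. Adamtsl2, a microfibril protein whose loss causes geleophysic dysplasia with thickened heart valves, was at 39.4, 49.3, 47.0, 42.5 and 49.2 CPM in sham and 45.3, 85.9, 92.8, 101 and 56.9 CPM in TAC. TAC replicates 2, 3 and 4 were high, replicate 5 only slightly above sham and replicate 1 within the sham range. The log2 fold change was 0.75 ± 0.18 (edgeR adjusted p = 0.00686) and rose to 0.89 without TAC replicate 1, the library in which the macrophage and fibroblast marker sums were highest. Adamtsl5 was at 256, 223, 213, 211 and 225 CPM in sham and 307, 269.8, 263, 249.8 and 239 CPM in TAC. Its small change of 1.18-fold (log2 0.24 ± 0.07, edgeR adjusted p = 0.0249; 0.18 without TAC replicate 1) came with overlapping groups, and the call was lost without sham replicate 3, 4 or 5.

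Adamtsl4, a fibrillin-binding protein needed to hold the eye lens, was at 117, 101, 123, 125 and 128 CPM in sham and 100.2, 93.2, 111, 107 and 112 CPM in TAC. The values leaned lower in TAC but overlapped and did not pass (log2 -0.18 ± 0.07, edgeR adjusted p = 0.0702). Adamtsl1 was at 4.61, 6.83, 4.26, 4.46 and 5.26 CPM in sham and 6.93, 3.67, 4.70, 5.53 and 4.83 CPM in TAC (log2 0.02 ± 0.18, edgeR adjusted p = 0.938). Adamtsl3 was at 7.13, 4.88, 4.52, 4.69 and 5.49 CPM in sham and 7.28, 5.71, 5.06, 5.64 and 4.28 CPM in TAC (log2 0.06 ± 0.17, edgeR adjusted p = 0.825). Neither showed a shift beyond the spread of its libraries.

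Levels of different genes were compared as CPM per kb of merged exon length (GENCODE M21). In sham hearts 5 members were above 10 CPM per kb, 12 between 1 and 10 and 16 under 1. The order was led by Adamtsl5 at 47.8 ± 3.81 CPM per kb (SD, n = 5) and Adamtsl4 at 28.3 ± 2.61, both without a protease domain. Adam15 followed at 24.8 ± 3.26, Adamts1 at 16.2 ± 2.59 and Adam9 at 12.5 ± 0.212. The ranges of Adamtsl4 and Adam15 overlapped in sham (24.0 to 30.5 and 20.7 to 29.7 CPM per kb), so their order is not settled by these libraries. The order and the bands also depend on the length used. With the longest transcript, Adam15, at 39.0 CPM per kb in sham, came before Adamtsl4, at 29.4. By that length Adamts7, at 11.2, and Adamts10, at 10.03, also passed 10 CPM per kb in sham, and Adamts4, at 1.08, passed 1. Adamts20 was lowest, at 0.0601 ± 0.0288 CPM per kb in sham. By its mean Adamts2 was in place 11 in sham, at 5.55 ± 0.9 CPM per kb, and in place 6 in TAC, at 13.5 ± 3.03. Its range in TAC (11.4 to 18.8 CPM per kb) overlapped that of Adam19 (9.95 to 14.7), and without TAC replicate 1 Adamts2, at 12.2, came in place 7 behind Adam19, at 12.4. Adamts7 was in place 6 in sham and in place 13 in TAC, at 5.84 ± 1.05 CPM per kb, and in place 12 without that library. Of the 13 higher calls, 6 were for members under 1 CPM per kb in sham (Adamts8, Adamts17, Adamts12, Adam8, Adam12 and Adamts20). The 7 members that rose at least 2-fold were these 6 and Adamts2, or 7 of 33 tested members, with or without TAC replicate 1. Of all tested genes 3.25% rose by that much, and the 7 include Adamts20, which passed the count filter only through the TAC libraries.

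**Figure D4:**
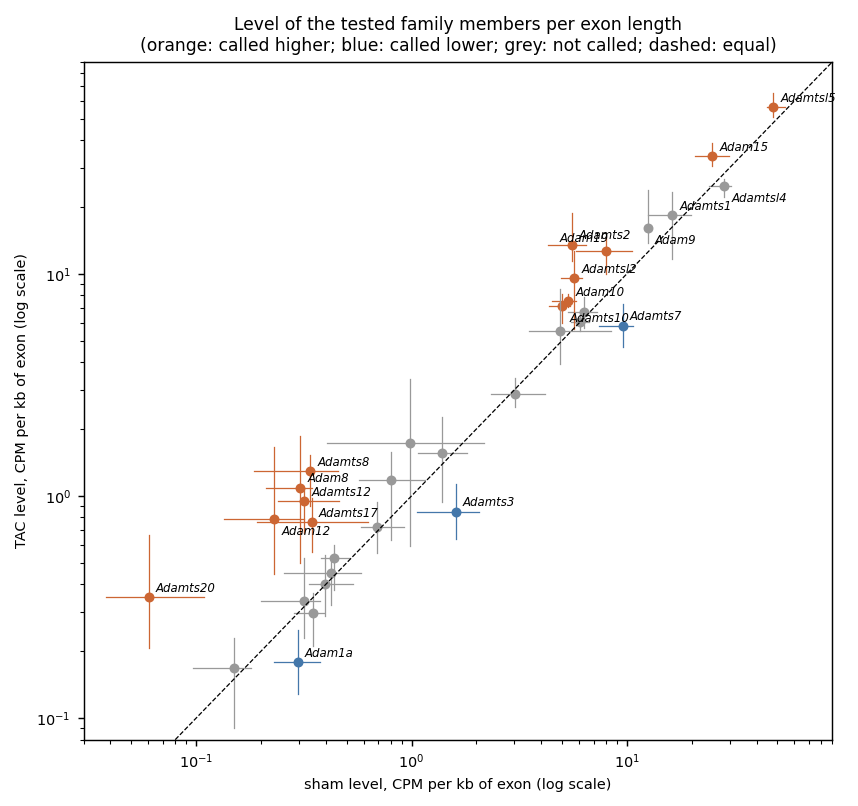
Mean level of the 33 tested members in TAC (vertical) against sham (horizontal), both in CPM per kb of exon on log scales, with the range of 5 libraries as thin lines and a dashed line of equal levels. Weakly expressed Adamts20, Adamts8, Adam8 and Adam12 lie far above the line, Adamtsl5 is the most abundant member in both groups, and Adamts7 and Adamts3 lie below the line.

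Genes that act with these proteases were taken from a list of 64 inhibitors, partners and substrates, of which 52 could be tested. The list was set with earlier results of these data known, so its shares are a description and not a test. It includes Cdh5, one of the endothelial markers above, and Col1a1 and Dcn, which are among the fibroblast markers. Of these, 29 were called higher (55.8%, against 18.8% of all tested genes) and 3 lower (5.77%, against 17.0%). Together that is 61.5%, against 35.8% of all tested genes. Without TAC replicate 1 the numbers were 28 higher and 2 lower. Among the inhibitors, Timp1, a broad tissue inhibitor of metalloproteases, was at 7.55, 3.66, 3.49, 1.49 and 5.38 CPM in sham and 83.9, 25.0, 9.64, 5.32 and 6.37 CPM in TAC. Its log2 fold change of 2.57 ± 0.75 (edgeR adjusted p = 0.0178) rested in part on TAC replicate 1 and was 1.36 without it (edgeR adjusted p = 0.0409). Timp4, an inhibitor with high expression in heart, fell from 16.2, 5.61, 8.27, 9.26 and 12.5 CPM in the sham libraries to 1.16, 4.21, 3.37, 3.13 and 2.09 CPM in the TAC libraries, without overlap (log2 -1.92 ± 0.32, edgeR adjusted p = 0.000613). Timp3, the inhibitor with the widest action on ADAM17 and the aggrecanases, did not pass (122 to 193 CPM in sham, 129 to 207 CPM in TAC; log2 0.06 ± 0.14, edgeR adjusted p = 0.768). Timp2 (log2 0.34 ± 0.09, edgeR adjusted p = 0.013) and Reck, a membrane-bound inhibitor (log2 0.36 ± 0.12, edgeR adjusted p = 0.0266), were higher.

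Of 11 tested partners in maturation and traffic, 4 were higher (36.4%, against 18.8% of all tested genes) and 1 lower (9.09%, against 17.0%). Without TAC replicate 1 the numbers were 3 and 0 by the same test. Rhbdf1 and Rhbdf2, the inactive rhomboids that carry ADAM17 to the cell surface, rose although Adam17 mRNA did not pass. Rhbdf1 was at 46.7 to 56.9 CPM in sham and 61.8 to 83.3 CPM in TAC (log2 0.46 ± 0.09, edgeR adjusted p = 0.00139) and Rhbdf2 at 31.5 to 36.5 CPM in sham and 43.7 to 50.6 CPM in TAC (log2 0.47 ± 0.07, edgeR adjusted p = 0.000217). Tspan17, one of the tetraspanins that escort ADAM10, rose (log2 0.68 ± 0.16, edgeR adjusted p = 0.00532), and its log2 value was 0.53 without TAC replicate 1. Tspan14 was just past the threshold (log2 0.24 ± 0.09, edgeR adjusted p = 0.0453) and was called in 6 of 18 alternatives, with an edgeR adjusted p of 0.0505 without TAC replicate 1. Tspan5 did not pass (log2 0.24 ± 0.17, edgeR adjusted p = 0.309). Furin, which removes the prodomain of many members, was lower (log2 -0.30 ± 0.10, edgeR adjusted p = 0.0353), a call kept in 10 of 18 alternatives and lost without TAC replicate 1 (edgeR adjusted p = 0.0537), and Pcsk6 did not pass (log2 0.05 ± 0.15, edgeR adjusted p = 0.841). Lrp1, the receptor that takes up several ADAMTS enzymes, rose (log2 0.51 ± 0.07, edgeR adjusted p = 0.000274). Pofut2 (log2 0.01 ± 0.06, edgeR adjusted p = 0.934) and B3glct (log2 0.15 ± 0.16, edgeR adjusted p = 0.494), which put sugars on thrombospondin repeats, did not pass.

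Among 19 tested membrane proteins that are shed, 11 were higher (57.9%, against 18.8% of all tested genes). In this list 1, Cdh2, was lower (5.26%, against 17.0%). Hbegf, heparin-binding EGF-like growth factor, was at 23.2 to 32.1 CPM in sham and 39.3 to 68.2 CPM in TAC (log2 1.05 ± 0.14, edgeR adjusted p = 0.000186). Cd44, the hyaluronan receptor, was at 5.26 to 9.04 CPM and 12.9 to 27.4 CPM (log2 1.32 ± 0.20, edgeR adjusted p = 0.000377, and log2 1.11 without TAC replicate 1), and Notch1 at 159 to 174 CPM and 176 to 199.7 CPM (log2 0.19 ± 0.05, edgeR adjusted p = 0.0102). Nrg1 was too low to test. Cd44, Hbegf and Notch1 did not overlap between groups, although the gap for Notch1 was small.

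Of 11 tested matrix substrates, 10 were higher (90.9%, against 18.8% of all tested genes) and 1, Vwf, did not pass. Vcan, versican, was at 21.3, 31.1, 24.7, 15.7 and 27.0 CPM in sham and 63.9, 72.0, 57.0, 50.6 and 42.6 CPM in TAC, without overlap (log2 1.26 ± 0.17, edgeR adjusted p = 0.000163). Col1a1 was at 219 to 384 CPM in sham and 825 to 2998 CPM in TAC (log2 2.14 ± 0.33, edgeR adjusted p = 0.000409). It is one of the fibroblast markers above, and its log2 value was 1.61 without TAC replicate 1, while that of Col3a1 went from 2.12 ± 0.29 (edgeR adjusted p = 0.000189) to 1.71. Fbn1 (log2 1.38 ± 0.18, edgeR adjusted p = 0.00015) and Fbn2 (log2 1.05 ± 0.31, edgeR adjusted p = 0.0186) encode fibrillins, the partners of Adamts10, Adamts17 and the ADAMTS-like proteins, and both rose. Fbn2 was low, at 0.915 to 2.41 CPM in sham and 2.52 to 6.36 CPM in TAC. Without TAC replicate 1 the log2 value was 1.28 for Fbn1 and 0.77 for Fbn2 (edgeR adjusted p = 0.0432 for Fbn2). Comp, the named target of Adamts7 and Adamts12, was low but higher in TAC, with means of 1.22 CPM in sham and 3.72 CPM in TAC (log2 1.61 ± 0.50, edgeR adjusted p = 0.0231). Its groups overlapped, and its log2 value was 0.99 without TAC replicate 1 (edgeR adjusted p = 0.0449). Vwf, von Willebrand factor, had means of 94.3 ± 4.66 and 94.3 ± 17.3 CPM (SD, n = 5 each; 95% interval of the log2 fold change -0.22 to 0.22, edgeR adjusted p = 0.998). Acan was too low to test.

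**Figure D5:**
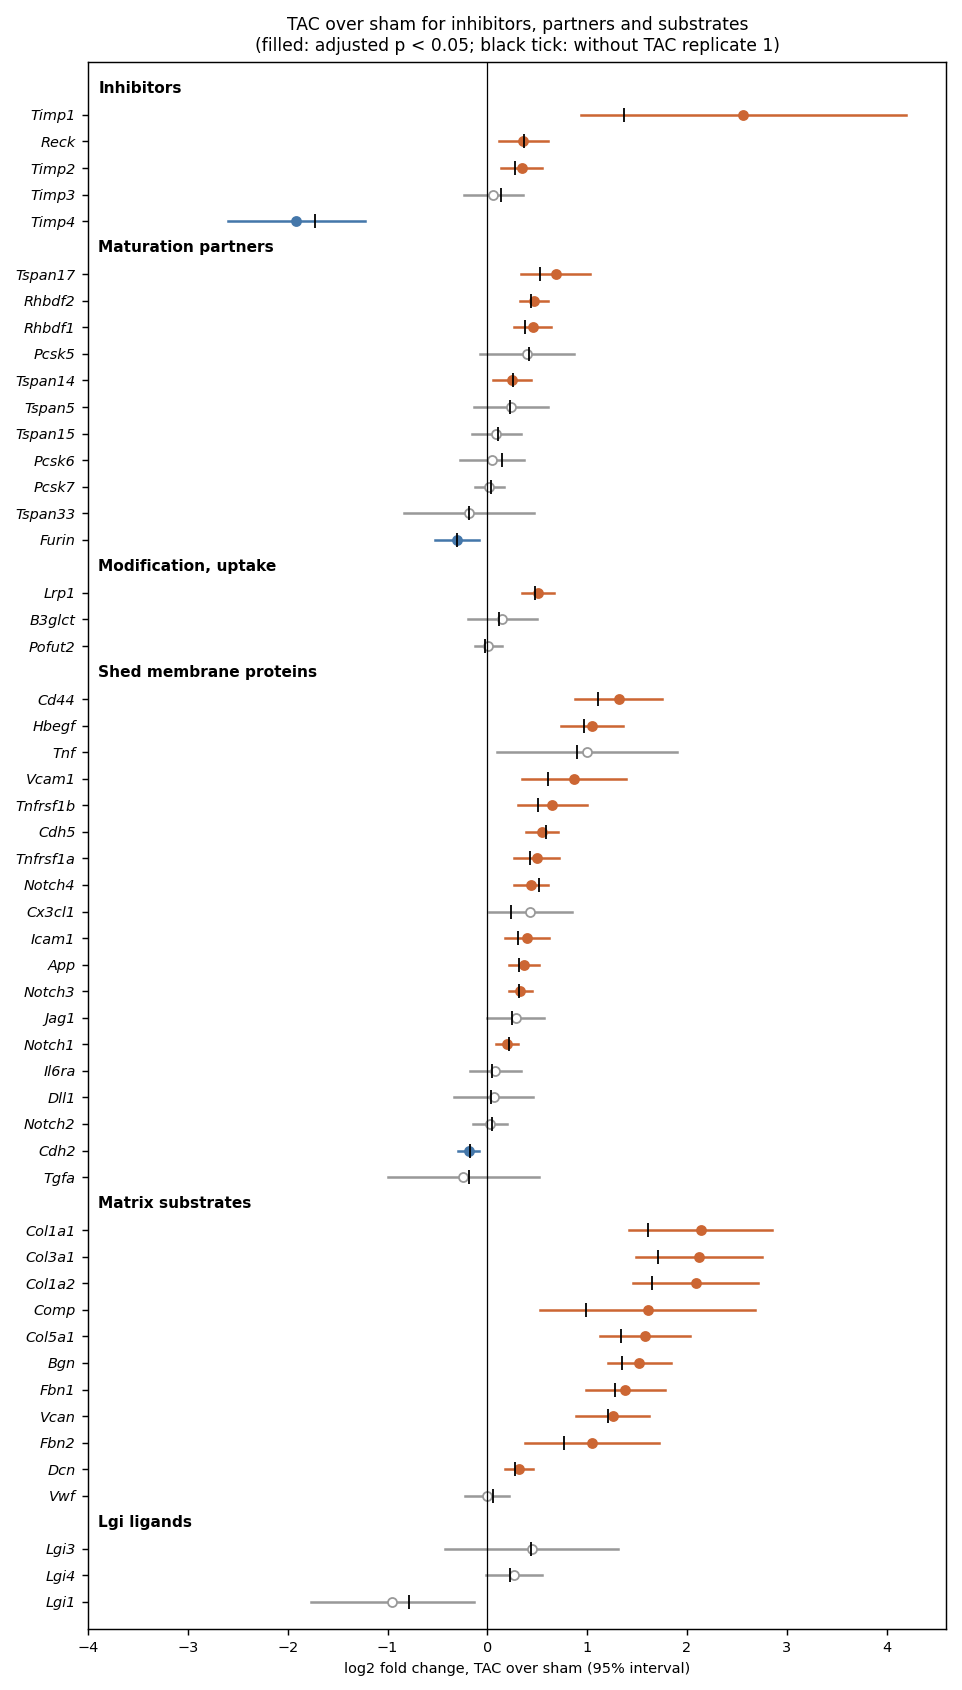
Log2 fold change of TAC over sham for the 52 tested inhibitors, partners and substrates, grouped by role, with the 95% interval as a line, filled points for genes called by edgeR and a black tick for the value without TAC replicate 1. The tested matrix substrates other than Vwf lie to the right of 0, Timp1 and Timp4 lie on opposite sides, and the Timp1 value moves to 1.36 without TAC replicate 1.

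Summed over all members, the family took 1098 to 1295 CPM in the sham libraries and 1308 to 1567 CPM in the TAC libraries, with TAC replicate 1 at 1521 CPM inside that range. The ranges did not overlap, but the highest sham library (replicate 1) and the lowest TAC library (replicate 5) were close. No test was run on the sum.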

How the data were processed

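The authors deposited raw read counts for each Ensembl gene. Per the submitters' processing notes, which list tools without their order, TopHat2 2.0.10, Bowtie2 and mm10 belong to the sham libraries, TopHat 1.3.0, Bowtie, mm9 and mm10 to the TAC libraries, and HTSeq to both; the ID column's header names GRCm37. How reads were counted is not given in the sources used here. Libraries were polyA-selected, single-end and not strand-specific, per the labels' protocols. A row of totals was left out.

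Counts were tested with edgeR 4.0.16 (R 4.3.3, limma 3.58.1): filterByExpr (minimum count 10, total 15), TMM, quasi-likelihood F tests, group as the only term, Benjamini-Hochberg adjustment over 12001 genes. SE was the log2 fold change over the square root of F. Alternatives were other scalings, DESeq2 1.42.0, limma-voom, robust dispersion, other filters, a replicate block and leaving out each library. The code was tested on simulated data. Within-group pairs of libraries differed beyond sampling noise (chi-square per gene 2.67 to 24.8), so none was the same library sequenced again; this does not show that they came from separate animals.

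Members and lists were chosen with earlier results of these data known. All members with a count are named; called members and tested ones averaging at least 5 CPM have values per library, the companion panel was fixed by name, and library-level remarks were chosen after their values were seen. All 57 IDs matched GENCODE M21 (GRCm38), which gave lengths, overlaps and sites; the files' own coordinates were not used.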

Additional observations from a re-analysis of the deposited data

Results flagged for a closer look

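Within the groups of 5 libraries, the highest or lowest value was checked by Dixon's gap ratio for each of the 33 tested members, 66 groups in all. It passed the 95% critical value of 0.71 in 8 groups, and chance flags about 1 in 20 groups. In TAC replicate 1, the library whose Xist count goes against its label, 4 members stood high. Adam9 was at 97.8 CPM against 56.5 to 59.8 CPM in the other TAC libraries. Adam12 was at 17.6 CPM against 4.72 to 7.07, Adamts2 at 175 CPM against 106.6 to 124, and Adamts20 at 6.01 CPM against 1.87 to 2.82. In sham replicate 1, Adamts9 was high at 127 CPM against 53.1 to 69.9 in the other sham libraries, and Adam23 was low at 3.56 CPM against 5.81 to 6.71. In sham replicate 2, Adamts20 was high at 0.976 CPM against 0.343 to 0.524, and Adam8 was low at 0.976 CPM against 1.42 to 1.60.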

How the results depend on the processing

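The number of members called higher was 12 to 14 and lower 2 to 3 when each library was left out in turn; for the companion genes these numbers were 27 to 30 and 2 to 3. Of the 16 called members, 14 kept their call in all 18 alternatives. The exceptions were Adamtsl5 (15 of 18; edgeR adjusted p 0.062 without sham 3, 0.0708 without sham 4 and 0.0557 without sham 5) and Adam1a (10 of 18; 0.0802 without sham 1, 0.0697 without sham 2, 0.0624 without TAC 2, 0.0779 without TAC 3 and 0.0698 without TAC 4, and lost with library totals, DESeq2 and the block). Members that passed in some alternatives were Adam9 (8; edgeR adjusted p 0.0198 without TAC 1, 0.0493 without TAC 2, 0.0436 without TAC 3 and 0.0387 without TAC 4), Adamts14 (2; 0.0486 without sham 2 and 0.022 without TAC 5), Adamtsl4 (2; 0.0146 without sham 2) and Adamts4 (2; 0.0494 without sham 1). Among companion genes, the call of Reck was lost at 0.0624 without sham 1, 0.0724 without TAC 3 and 0.0579 without TAC 5. That of Comp was lost at 0.054 without sham 5 and with limma-voom (adjusted p 0.0618). That of Timp1 was lost with limma-voom (adjusted p 0.117) and robust edgeR dispersion (0.0665). With library totals in place of TMM, the median of all genes shifted to 0.11 and 73.8% of calls were higher instead of 52.5%, 1 companion gene was called lower instead of 3, and the log2 fold changes of Adamts5 and Vwf turned to 0.038 and 0.10. The value of Adam17 turned to -0.003 with RLE size factors, -0.0081 with DESeq2, -6e-04 with limma-voom, -0.0026 without the low-count filter and -3e-04 with a CPM filter, and that of Pofut2 to -6e-04 with DESeq2. Leaving out 1 library turned the sign of values near 0, none of them called: Adamtsl1 ranged from -0.10 to 0.15, Adamtsl3 from -0.058 to 0.19, Adam23 from -0.13 to 0.20, Adamts6 from -0.044 to 0.23, Adamts15 from -0.018 to 0.29, Adamts5 from -0.15 to 0.073, Adamts9 from -0.042 to 0.46, Adam17 from -0.049 to 0.034, Timp3 from -0.030 to 0.14, Vwf from -0.095 to 0.054, Pofut2 from -0.028 to 0.033 and Pcsk6 from -0.045 to 0.15. The cause was not tested. With the length of the longest transcript, 18 of 33 levels per kb moved by more than their SD, such as Adam15 to 39.0 and Adamts10 to 10.03 CPM per kb. Leaving out TAC replicate 1 was an alternative for the TAC levels per kb chosen after seeing the data. It moved 0 of 33 by more than their SD, but this count could not have come out otherwise. The mean of 5 values cannot shift by their own SD when 1 of them is left out. The count therefore does not show whether the levels depend on that library. Without it, Adam12 went from 0.788 to 0.569 CPM per kb in TAC and Adamtsl2 from 9.55 to 10.5.

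The replicate numbers do not pair the samples: same-numbered libraries correlated in their deviations at -0.092 to 0.22, and 1 of 5 sham libraries correlated best with its own number. A replicate block gave 15 members higher and 3 lower, and 29 and 3 companion genes, but not the same genes: it called Adam9 (edgeR adjusted p 0.0413) and Adamts4 (0.0337) higher and Adamtsl4 (0.0241) lower and lost Adam1a (0.0524), Furin (0.0501) and Tspan14 (0.0740). Because the companion totals stayed the same, other companion genes, not named here, were newly called in each direction. Depth limits the 24 untested members, which held at most 42 counts over all libraries.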
